A study of Mus musculus with 18 samples.

Results

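The 10 genes described here, Egr1, Egr2, Egr3, Nr4a1, Nr4a2, Nr4a3, Ier2, Btg2, Dusp1 and Klf4, are early response genes, and they were taken by gene name from the 34745 rows of the deposited table. They were read in 18 polyA RNA-seq libraries from brain, kidney and gastrocnemius, a calf muscle, of wild-type male C57BL/6 mice. In each tissue, 3 libraries came from mice given SeMSNs, a nano-selenium supplement by the title of the series, and 3 came from old control mice given saline by gavage. All mice were 18 months old at the start and 23 months old when tissues were taken, and all were on a normal diet. For the SeMSNs mice the labels give both 10 mg/kg by daily gavage and 5 mg/kg of a 1 mg/mL preparation in 2 doses every 2 days, and which was used could not be settled. The labels do not tie a library to its mouse, and the p-values below therefore measure the spread between libraries, which may in part be technical. The time from the last dose to tissue collection is not given in the sources used here.

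Early response genes are transcribed within minutes of a signal, from growth factors, cAMP, calcium, membrane depolarisation or stress, by transcription factors such as SRF and CREB that are already in the nucleus, and their mRNAs are short-lived. Egr1, Egr2 and Egr3 encode zinc finger transcription factors that bind GC-rich sites, and Nr4a1, Nr4a2 and Nr4a3 encode orphan nuclear receptors that act without a known natural ligand. Among the others, Dusp1 encodes a phosphatase that switches off MAP kinases, Btg2 an antiproliferative protein that recruits mRNA deadenylases, Klf4 a Krueppel-like transcription factor, and Ier2 a small nuclear protein. In brain the Egr genes follow neuronal activity, and in skeletal muscle the Nr4a genes follow exercise and adrenergic signalling.

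Library totals ran from 17357799 to 22146406 counts, and mitochondrial transcripts took 9.95% to 13.1% of counts in brain, 24.4% to 28.9% in kidney and 19.7% to 26.9% in gastrocnemius. Some libraries stood apart before any group was compared. In brain, 12 cerebellar neuron markers, 10 of them tested, summed to 5440 and 5170 CPM (counts scaled to library size, with TMM factors) in SeMSNs libraries 1 and 2, against 186 in SeMSNs library 3 and 217 to 261 in the controls, with no marker at 0 throughout. In brain control 2, the 10 fast muscle fibre markers, 8 of them tested, summed to 1377 CPM against 26.5 to 335 CPM in the other 5 brain libraries and 110381 to 121798 CPM in the gastrocnemius controls. Kidney control 3 had the highest sum of the 10 injured tubule markers, at 2267 CPM against 1307 to 1611 CPM in the other 5. The defining markers of each tissue were present in all of its libraries: neuron markers summed to 5177 to 6416 CPM in brain, proximal tubule markers to 13862 to 23032 CPM in kidney and fast fibre markers to 110381 to 165826 CPM in gastrocnemius.

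The members are compact genes spread over 9 chromosomes. Their median span was 5243 bases, a length under which only 17.02% of 17827 genes fall, and the median of those genes was 21382 bases. By the coordinates in the deposited table, spans ran from 1522 bases for Ier2 to 41295 bases for Nr4a3. No other annotated gene overlapped a member within these coordinates. GENCODE M21 gives wider coordinates for Egr3, Nr4a1 and Dusp1. Those of Dusp1, chr17:26505590-26562128 against 26505590-26508519, are wider than those of Nr4a3. Overlap was not checked over the wider coordinates.

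Promoter windows of 300 bases, from 250 before to 50 after the start site in RefSeq (GRCm38.p6), were present for 7 members: Egr2, Nr4a1, Nr4a2, Nr4a3, Btg2, Dusp1 and Klf4. The letters TGACG, the half-site of the cAMP response element that CREB binds, were searched on both strands and lay in at least 1 window of all 7, against 20.8% of the 32851 windows and 23.05% of the 27025 genes in the table. Egr2 had 5 windows, 3 of them with the half-site and 4 with the CArG box below. The full element, TGACGTCA, which contains the half-site, lay in the windows of Btg2 and Dusp1 and in 1.79% of all windows. A match describes the letters and does not show that a factor bound there. The stretches before the start site that lie outside annotated exons are shown for the 3 Nr4a genes, Btg2 and Dusp1, because they hold several half-sites or the full element and because the 3 receptors and Btg2 had the largest differences relative to their error in gastrocnemius. Capitals mark TGACG and its reverse complement CGTCA, and each sequence reads 5′ to 3′ along the strand of its gene.
Nr4a1 (chr15:101266596-101266845, plus strand): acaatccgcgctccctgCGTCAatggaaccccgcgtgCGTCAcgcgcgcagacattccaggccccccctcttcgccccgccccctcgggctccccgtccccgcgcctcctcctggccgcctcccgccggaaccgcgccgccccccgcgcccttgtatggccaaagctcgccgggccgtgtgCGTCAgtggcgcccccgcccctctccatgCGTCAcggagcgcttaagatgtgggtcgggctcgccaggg
Nr4a2 (chr2:57124004-57124253, minus strand): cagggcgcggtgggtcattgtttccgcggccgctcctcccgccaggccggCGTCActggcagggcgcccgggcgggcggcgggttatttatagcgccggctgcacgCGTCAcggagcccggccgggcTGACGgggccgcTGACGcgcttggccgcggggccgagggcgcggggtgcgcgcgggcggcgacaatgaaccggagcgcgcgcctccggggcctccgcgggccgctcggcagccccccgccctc
Nr4a3 (chr4:48045055-48045152, plus strand): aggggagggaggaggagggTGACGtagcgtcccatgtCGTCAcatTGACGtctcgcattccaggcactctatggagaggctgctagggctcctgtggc
Btg2 (chr1:134079156-134079405, minus strand): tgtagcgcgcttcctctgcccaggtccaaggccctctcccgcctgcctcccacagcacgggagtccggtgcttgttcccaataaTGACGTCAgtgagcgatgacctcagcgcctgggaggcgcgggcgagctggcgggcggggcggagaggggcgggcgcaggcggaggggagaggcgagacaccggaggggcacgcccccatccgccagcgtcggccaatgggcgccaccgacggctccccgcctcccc
Dusp1 (chr17:26508520-26508722, minus strand): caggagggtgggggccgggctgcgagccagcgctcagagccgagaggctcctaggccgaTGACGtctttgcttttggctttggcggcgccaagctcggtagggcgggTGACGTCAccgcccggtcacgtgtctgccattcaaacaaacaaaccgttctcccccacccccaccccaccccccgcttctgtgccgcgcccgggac

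The Nr4a1 and Nr4a2 stretches each held 4 half-sites, that of Nr4a3 held 3 in 98 bases, and in Btg2 and Dusp1 the paired capitals form the full element, whose first base is at position -166 and -143 from the start site. The EGR site, GCGGGGGCG or GCGTGGGCG, lay in the windows of Nr4a1 and Klf4 and in 3.47% of all windows. The CArG box bound by SRF lay in that of Egr2 and in 1.63% of all windows. The NR4A monomer site, AAAGGTCA, lay in none of the 7 windows and in 1.51% of all windows. Apart from the half-site inside the full element, no matches overlapped in these windows.

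In the old control mice the members differed in where they were most abundant. Egr3 was highest in brain, Nr4a1, Nr4a3 and Klf4 were highest in muscle, and Btg2 and Dusp1 were lower in brain than in the other tissues. Ier2 was lower in brain too in the fit below, but by FPKM its brain and gastrocnemius values overlapped. These differences were tested on the counts of the 9 control libraries with edgeR's quasi-likelihood test and Benjamini-Hochberg adjustment over 17252 genes, with an adjusted p of 0.05 as the threshold. Kidney and brain differed in 6 of the 10 members (70.9% of all genes tested), gastrocnemius and brain in 7 (71.5% of all genes), and gastrocnemius and kidney in 6 (61.2% of all genes), so the shares were near those of genes at large.

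Levels are given as the FPKM values that the authors deposited, with the SD over 3 libraries. FPKM values are scaled to library totals, whereas the fitted differences also use TMM factors, so they can differ between tissues. For Ier2 in gastrocnemius against brain, the fitted log2 difference was 1.41, and that of limma on log2(FPKM + 1) was 0.17. Egr3, which is induced by activity in neurons, stood at 25.9, 41.3 and 21.9 FPKM in the brain controls, a mean of 29.7 ± 10.2 FPKM. In kidney its values were 0, 0.191 and 0.450 FPKM, and in gastrocnemius 0, 0.379 and 0.102 FPKM. The brain values were far above all others, with log2 differences of -6.63 ± 0.79 (SE) for kidney against brain (adjusted p 3.81e-05) and -6.42 ± 0.81 for gastrocnemius against brain (adjusted p 5.51e-05). Egr1 had means of 23.0 ± 10.3 FPKM in brain, 6.68 ± 7.58 for kidney and 4.04 ± 2.49 for gastrocnemius, and Egr2 of 0.834 ± 0.856, 0.330 ± 0.344 and 0.336 ± 0.167. Neither Egr1 nor Egr2 passed the threshold between any pair of tissues in this fit. Egr1 did pass in other fits. Without kidney control 3, the highest kidney library at 15.4 FPKM against 1.67 and 2.98, brain was higher than kidney (log2 difference -2.86, adjusted p 0.00192) and higher than gastrocnemius (-1.46, adjusted p 0.0180). With all libraries, limma on log2(FPKM + 1) also called both (adjusted p 0.0214 and 0.0119).

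Nr4a1 was the most abundant member in muscle, at 79.3, 59.5 and 172 FPKM in the gastrocnemius controls against 19.0, 32.1 and 12.6 in brain and 3.18, 3.74 and 9.44 in kidney. The muscle values overlapped with none of the others, and the log2 differences were 3.35 ± 0.57 against brain (adjusted p 0.000456) and 4.79 ± 0.62 against kidney (adjusted p 8.59e-05). Nr4a3 followed the same order, with means of 8.04 ± 8.72 FPKM in gastrocnemius, 1.14 ± 0.655 in brain and 0.293 ± 0.371 in kidney. Its log2 differences from muscle were 3.85 ± 1.05 against brain (adjusted p 0.00749) and 5.30 ± 1.14 against kidney (adjusted p 0.00247). Nr4a2, known for its role in dopamine neurons, was highest in brain, with means of 5.94 ± 4.21 FPKM there, 1.18 ± 0.869 in gastrocnemius and 0.196 ± 0.126 in kidney. Kidney was below brain by a log2 difference of -4.43 ± 0.82 (adjusted p 0.000756) and gastrocnemius above kidney by 3.13 ± 0.80 (adjusted p 0.00658), while gastrocnemius against brain did not pass with edgeR (-1.30 ± 0.69, adjusted p 0.116) and did with limma on log2(FPKM + 1) and log2(FPKM + 0.1) (adjusted p 0.00758 and 0.0114). Nr4a3 in kidney was below brain without kidney control 3 (-3.36, adjusted p 0.0235). For Nr4a1, kidney was below brain by -1.45 ± 0.54 (adjusted p 0.0358), a call that was lost without brain control 1, brain control 2, kidney control 1, kidney control 2 or gastrocnemius control 1 (adjusted p 0.0504 to 0.156).

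Btg2 had control means of 5.81 ± 1.05 FPKM in brain, 14.3 ± 8.13 for kidney and 29.7 ± 18.7 for gastrocnemius, and Dusp1 of 5.49 ± 1.46, 16.5 ± 2.00 and 21.03 ± 6.71. Both were higher in kidney than in brain, by log2 differences of 1.82 ± 0.50 (adjusted p 0.008455) and 2.09 ± 0.26 (adjusted p 4.59e-05), and higher in gastrocnemius than in brain, by 3.40 ± 0.53 (adjusted p 0.000248) and 2.997 ± 0.26 (adjusted p 4.43e-06). Between gastrocnemius and kidney the differences were smaller, at 1.58 ± 0.49 for Btg2 (adjusted p 0.0185) and 0.91 ± 0.25 for Dusp1 (adjusted p 0.00897). That of Btg2 was lost without kidney control 1, kidney control 2 or gastrocnemius control 3 (adjusted p 0.0647 to 0.0815). Klf4 had means of 1.81 ± 0.773 FPKM in brain, 2.39 ± 0.376 for kidney and 7.53 ± 3.75 for gastrocnemius, and gastrocnemius was above brain by 3.10 ± 0.43 (adjusted p 0.000113) and above kidney by 2.20 ± 0.42 (adjusted p 0.00114). Klf4 in kidney was above brain without brain control 2 or gastrocnemius control 1 (adjusted p 0.0302 and 0.0294). Ier2 had means of 3.22 ± 0.779, 7.35 ± 4.17 and 4.12 ± 2.69 FPKM, and its differences from brain of 1.71 ± 0.50 in kidney (adjusted p 0.0109) and 1.41 ± 0.50 in gastrocnemius (adjusted p 0.0275) did not survive the loss of kidney control 3 (adjusted p 0.0510) and of gastrocnemius control 3, brain control 1 or brain control 3 (adjusted p 0.0528 to 0.150) respectively. On log2(FPKM + 1) with limma, Btg2 and Ier2 between kidney and brain, Ier2 between gastrocnemius and brain, and Nr4a2, Btg2 and Dusp1 between gastrocnemius and kidney did not pass (adjusted p 0.0728 to 0.725), while Egr1 and Nr4a2 gained the calls given above, so that 5, 8 and 3 members passed in the 3 comparisons.

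**Figure D1:**
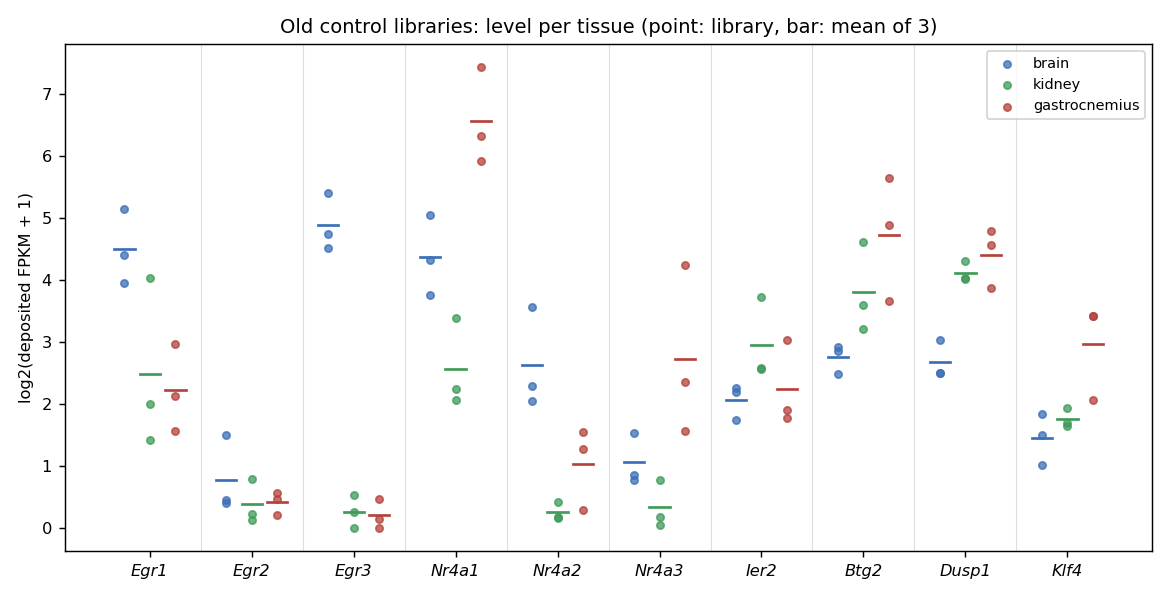
Levels of the 10 genes in the 9 old control libraries as log2(deposited FPKM + 1), with a point for each library and a bar for the mean of 3. Egr3 is high in brain alone, with kidney and gastrocnemius values of at most 0.450 FPKM, and Nr4a1 is highest in gastrocnemius, where its lowest library has 59.5 FPKM.

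The order of genes within a tissue depends on the length used for FPKM. The deposited values imply a length longer than the merged exons of GENCODE M21 for 65.7% of 17700 genes, taking lengths within 1% as equal. For Egr1 the implied length was 7520 bases against 4484 bases of merged exons, and for Egr3 it was 1416 against 4406. By merged exon length, Egr1 was the most abundant member in the brain controls at 38.6 ± 17.3 FPKM, followed by Nr4a1 at 14.98 ± 7.02 and Egr3 at 9.54 ± 3.29, whereas by deposited FPKM Egr3 came first. Comparisons of a gene between samples are not affected by its length.

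The members varied more between control libraries than most genes did. Over the 3 controls, the median coefficient of variation of the members was 46.3% in brain, 69.2% for kidney and 55.8% for gastrocnemius, against 12.98%, 14.9% and 21.4% for all genes tested. In the SeMSNs libraries the members' median was 52.2% in brain, 24.6% in kidney and 25.9% in gastrocnemius, against 18.5%, 13.7% and 16.3% for all genes. Each tissue had a control library that led most members. Brain control 2 was the highest of 6 libraries in 8 of the 10 genes (16.6% of all genes tested), kidney control 3 in 9 (23.5% of all genes), and gastrocnemius control 3 in 8 (19.2% of all genes). The counts and medians over the members are therefore given with and without that library.

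**Figure D2:**
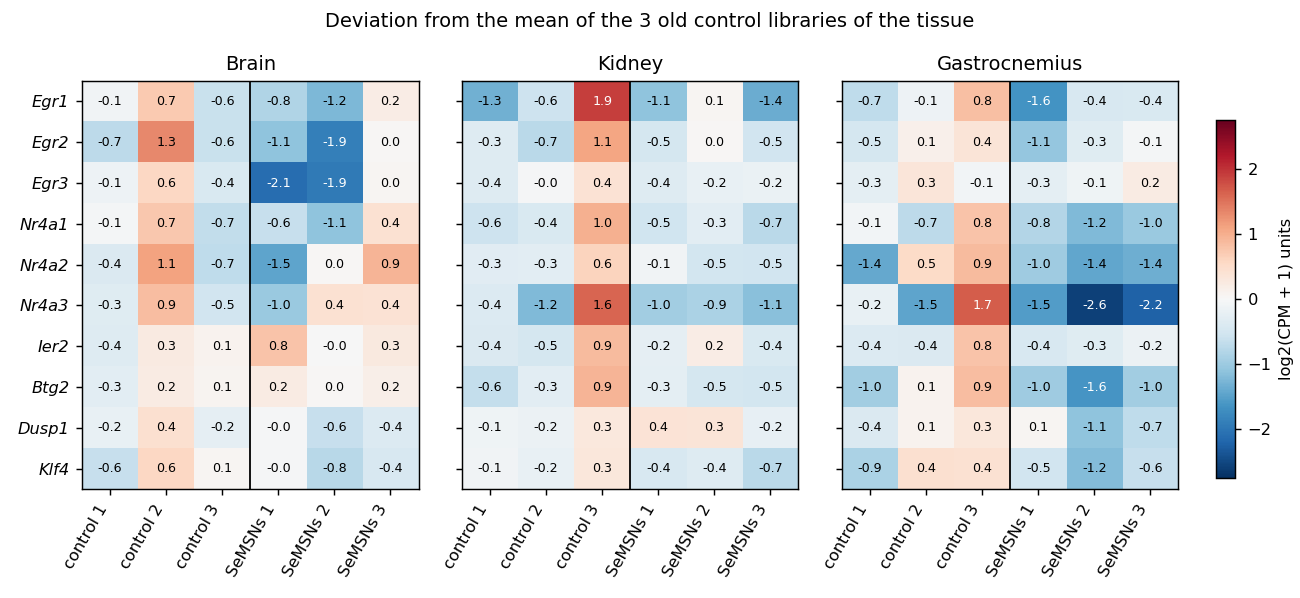
Deviation of each library from the mean of the 3 old control libraries of its tissue, in log2(CPM + 1) units, with genes in rows and libraries in columns. Brain control 2, kidney control 3 and gastrocnemius control 3 are red in most rows, and the 3 gastrocnemius SeMSNs libraries are blue in most rows.

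In gastrocnemius, all 9 members tested had lower fitted values with SeMSNs than in the old controls (51.1% of all genes did), and the receptors Nr4a1, Nr4a2 and Nr4a3 and the antiproliferative gene Btg2 had the largest differences relative to their error. None passed an adjusted p of 0.05 over 13150 genes (0 of 9 members, against 0.0228% of all genes). At an unadjusted p of 0.05, 5 of 9 were lower, against 6.71% of all genes, and the median log2 fold change was -0.91 against -0.01 for all genes. With DESeq2, Nr4a2 and Btg2 passed (adjusted p 0.0383 and 0.0466), in a fit that called 1.24% of all genes. Egr3 had 0, 11 and 3 counts in the controls and 0, 2 and 7 with SeMSNs, under the filter on low counts, and was not tested. In these bulk samples, fewer cells of a type and less RNA per cell cannot be told apart.

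Nr4a1, which follows exercise in muscle, stood at 217, 140 and 398 CPM in the controls and 131, 98.0 and 112 CPM with SeMSNs. The groups did not overlap, which held for Nr4a1, Nr4a3 and Btg2 of the 9 members and for 8.14% of all genes in this direction. The fitted log2 fold change of Nr4a1 was -1.15 ± 0.35 (adjusted p 0.312), from a mean of 252 ± 133 CPM to 114 ± 16.5 CPM. For Nr4a3 the values were 50.3, 20.6 and 185 CPM in the controls and 19.4, 8.95 and 11.7 CPM with SeMSNs. Control 3 was far above the rest, and the groups were separated by a narrow gap between control 2 and SeMSNs 1. Its fold change was -2.68 ± 0.71 (adjusted p 0.307), the smallest p among the members in any tissue, and -1.41 without control 3. Nr4a2 was at 1.55, 8.62 and 11.3 CPM in the controls and 2.39, 1.51 and 1.63 CPM with SeMSNs, so that control 1 lay among the SeMSNs libraries. Its fold change was -1.97 ± 0.60 (adjusted p 0.312), and without control 1 it passed the threshold (-2.44, adjusted p 0.0424), in a fit that called 0.118% of all genes.

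Btg2 had 35.3, 74.3 and 126 CPM in the controls and 34.9, 21.8 and 34.9 CPM with SeMSNs. Control 1 exceeded the highest SeMSNs library by under 1 CPM, and the fold change was -1.36 ± 0.41 (adjusted p 0.312). Klf4 had 15.6, 40.5 and 40.0 CPM against 20.3, 12.3 and 18.7 CPM, with control 1 again inside the SeMSNs range and a fold change of -0.91 ± 0.36 (adjusted p 0.352). Egr1 had 16.1, 24.2 and 47.6 CPM against 7.84, 19.3 and 19.6 CPM, and its groups overlapped (-0.91 ± 0.44, adjusted p 0.416). The remaining 3 members overlapped as well, with fold changes of -0.83 ± 0.57 for Egr2, -0.54 ± 0.31 for Dusp1 and -0.50 ± 0.38 for Ier2 (adjusted p 0.487 to 0.584).

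Without gastrocnemius control 3, 8 of 9 members had lower values, 4 had an unadjusted p under 0.05, and the median fold change was -0.65. No member passed, against 2.51% of all genes. Ier2 then had the opposite sign (0.10), and Nr4a1, Nr4a2 and Btg2 were at -0.65, -1.48 and -0.85. Other markers also set control 3 and control 1 apart. The 8 fibroblast markers summed to 248, 377 and 630 CPM in controls 1 to 3 and to 349 to 382 CPM with SeMSNs, with none at 0 throughout. The 8 slow fibre markers summed to 12096, 4558 and 1204 CPM in the controls and 2670, 913 and 3447 CPM with SeMSNs. The 8 neutrophil markers, 4 of them tested and Ly6g at 0 throughout, summed to 1.77, 3.80 and 13.1 CPM in the controls and 3.08 to 9.88 CPM with SeMSNs. Their part in the result was not tested.

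**Figure D3:**
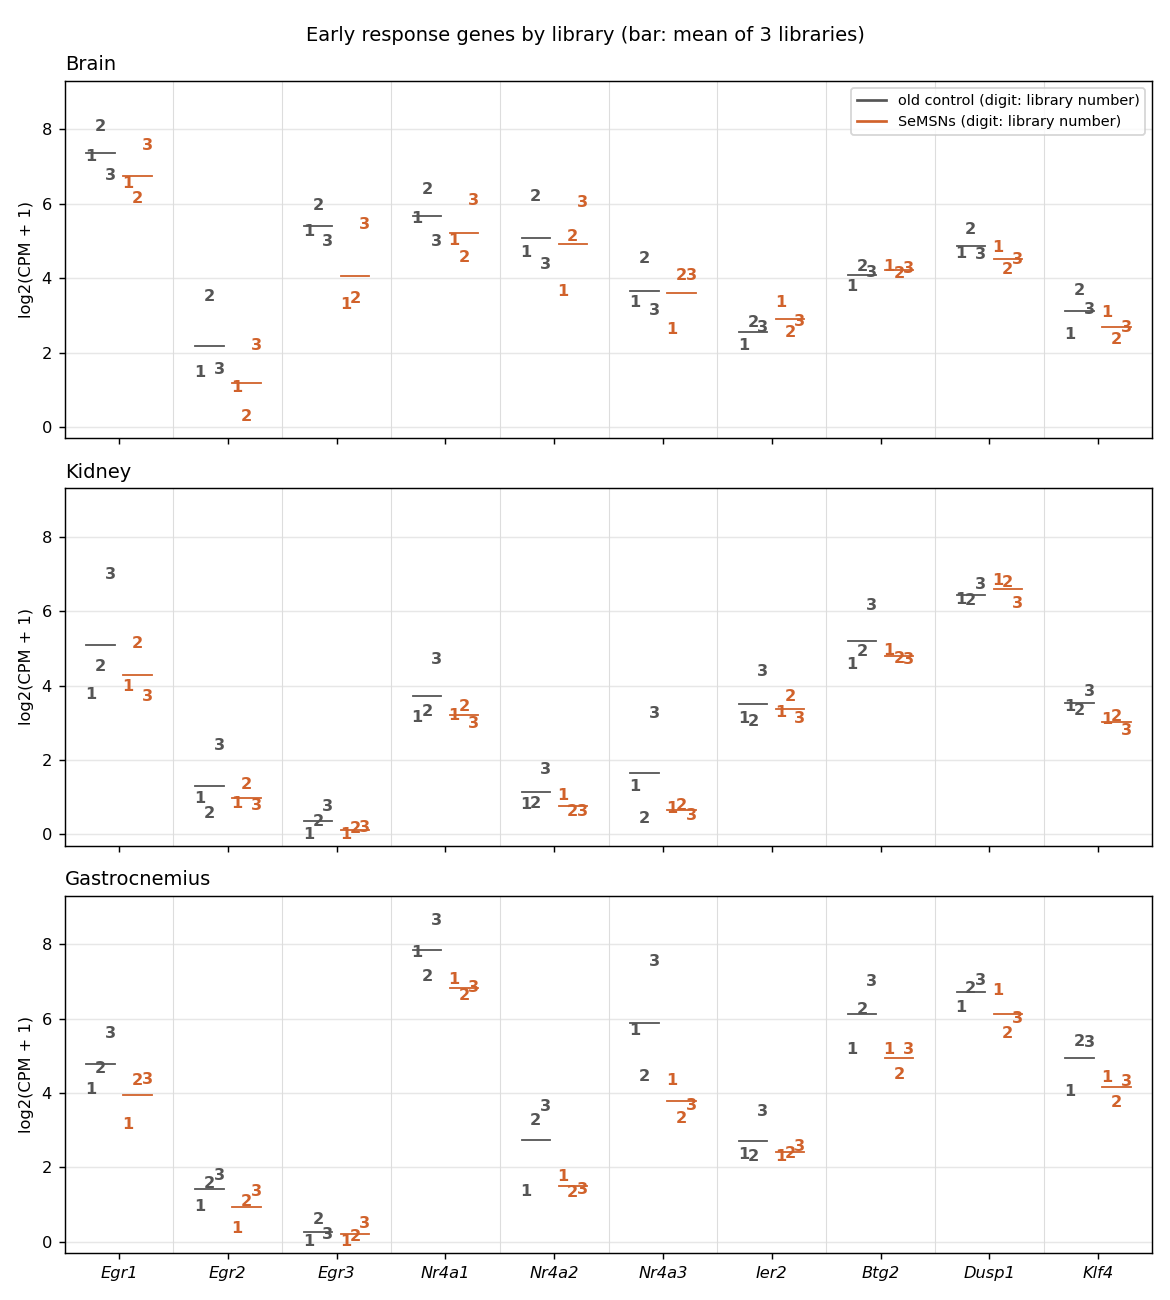
Values of the 10 genes in each of the 18 libraries as log2(CPM + 1), with the library number as the symbol and a bar at the mean of 3. In gastrocnemius all 3 control values of Nr4a1, Nr4a3 and Btg2 lie above all 3 SeMSNs values, and in kidney this holds for Klf4.

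In kidney, 8 of the 9 members tested had lower fitted values with SeMSNs (49.6% of all genes did), and 4 of these 8 had the opposite sign without kidney control 3. No member passed (0 of 9, against 0.00664% of 15051 genes, with edgeR; 0 with DESeq2), and 2 of 9, Klf4 and Nr4a3, had lower values at an unadjusted p under 0.05, against 3.59% of all genes. The median fold change was -0.75 against 0.00 for all genes. Without control 3, 4 of 9 members had lower values, none had an unadjusted p under 0.05, and the median was 0.03.

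Klf4 was the 1 member whose groups did not overlap in kidney (1 of 9, against 6.9% of all genes). It had 9.83, 9.05 and 13.4 CPM in the controls and 7.56, 8.07 and 5.99 CPM with SeMSNs, a fold change of -0.58 ± 0.21 (adjusted p 0.772) that was -0.39 without control 3. Nr4a3 had 1.42, 0.350 and 8.53 CPM in the controls and 0.626, 0.712 and 0.424 CPM with SeMSNs. Control 3 alone was high, and control 2 was below every SeMSNs library. Its fold change of -2.52 ± 1.03 (adjusted p 0.772) became -0.58 without control 3. Egr1 showed the same pattern, with 12.6, 21.7 and 125 CPM in the controls and 14.8, 34.2 and 12.1 CPM with SeMSNs. Its fold change was -1.38 ± 0.82 (adjusted p 0.779) and turned to 0.24 without control 3.

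Egr2, Btg2 and Ier2 also turned, from -0.89, -0.60 and -0.29 to 0.48, 0.03 and 0.34, when control 3 was left out. Nr4a1 and Nr4a2 kept their sign, at -0.75 and -0.85 with control 3 and -0.02 and -0.12 without it. Dusp1, the most abundant member in the kidney controls by FPKM, was the exception, at 78.4, 76.6 and 104 CPM in the controls and 112, 109 and 73.2 CPM with SeMSNs (0.18 ± 0.20, adjusted p 0.840). Egr3 had 0, 6 and 12 counts in the controls and 0, 2 and 3 with SeMSNs and was not tested.

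The injured tubule sum of kidney control 3, 2267 CPM over 10 markers all of which were tested, stood beside 1514 and 1611 CPM in the other controls and 1307 to 1492 CPM with SeMSNs. The 13 glucocorticoid-induced genes summed to 2675 CPM in control 3, 1324 and 1498 CPM in the other controls and 1277 to 1826 CPM with SeMSNs. The 12 macrophage markers were lower in sum in all SeMSNs kidneys, at 140 to 169 CPM against 198 to 248 CPM, as were the 12 endothelial markers, at 290 to 313 CPM against 352 to 445 CPM, with none at 0 throughout. Their part in the result was not tested.

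In brain, the groups overlapped for all 10 members (10.9% of all genes did not overlap and were lower), and the largest fitted differences were in Egr2 and Egr3. No member passed (0 of 10, against 0.00622% of 16082 genes, with edgeR; 0 with DESeq2), and none had an unadjusted p under 0.05, against 8.03% of all genes that were lower at that level. Fitted values were lower with SeMSNs for 8 of 10 (48.8% of all genes), with a median fold change of -0.40 against 0.01 for all genes. Without brain control 2, 5 of 10 were lower and the median was -0.03.

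Egr3 was at 37.1, 61.1 and 30.6 CPM in the controls and 8.83, 9.92 and 42.5 CPM with SeMSNs. SeMSNs libraries 1 and 2 were below every other library, and SeMSNs 3 lay inside the control range. Its fold change was -1.07 ± 0.64 (adjusted p 0.450), and -2.20 with an adjusted p of 0.00933 when SeMSNs 3 was left out, in a fit that called 17.2% of all genes. Egr1 had 153, 271 and 107 CPM in the controls and 92.4, 69.6 and 190 CPM with SeMSNs, and Egr2 had 1.74, 10.3 and 1.94 CPM against 1.08, 0.221 and 3.59 CPM. In all 3 Egr genes the lowest values were in SeMSNs 1 and 2 and the highest in control 2. The fold changes were -0.59 ± 0.47 for Egr1 (adjusted p 0.561) and -1.51 ± 1.04 for Egr2 (adjusted p 0.504). Without control 2 they were -0.148 for Egr1, -0.173 for Egr2 and -0.72 for Egr3.

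Nr4a2 had 24.9, 71.8 and 19.8 CPM in the controls and 11.4, 33.5 and 64.1 CPM with SeMSNs, a wide spread in both groups (-0.09 ± 0.71, adjusted p 0.960). Nr4a1 had 47.6, 83.1 and 30.8 CPM against 31.4, 22.5 and 66.7 CPM (-0.42 ± 0.50, adjusted p 0.701), and Nr4a3 had 9.11, 21.9 and 7.77 CPM against 5.20, 15.8 and 15.8 CPM (-0.07 ± 0.55, adjusted p 0.960). All 3 receptors changed sign without control 2, to 0.70, 0.04 and 0.54. Btg2 varied least, between 12.8 and 19.0 CPM over the 6 libraries (0.14 ± 0.18, adjusted p 0.728). The fold changes were 0.43 ± 0.32 for Ier2, -0.37 ± 0.25 for Dusp1 and -0.53 ± 0.39 for Klf4 (adjusted p 0.503 to 0.532).

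Markers of brain regions also differed between the brain libraries. The 12 forebrain excitatory neuron markers summed to 1703, 2119 and 1325 CPM in the controls and 854, 1071 and 2228 CPM with SeMSNs, so that SeMSNs 1 and 2 were lowest, as for Egr1 and Egr3. The 12 striatal markers summed to 1612, 543 and 1895 CPM in the controls and 437, 491 and 305 CPM with SeMSNs, and the 12 hypothalamic markers to 204, 23.7 and 216 CPM and 5.90, 2.54 and 4.62 CPM. In both of these sums SeMSNs 3 was low as well, unlike in the Egr genes. All forebrain and striatal markers and 8 of the hypothalamic markers were tested, and none was at 0 throughout. Their part in the result was not tested. With SeMSNs libraries 1 and 2 left out, which was chosen after seeing the data, 4 of 10 members had lower values, the median fold change was 0.14 and none passed, and the SeMSNs library that remained was assumed to vary like the controls.

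Across the 3 tissues, the mean of the tissue effects in a joint fit of all 18 libraries was below 0 for all 10 members, yet none passed the threshold (0 of 10, against 0.0889% of 18001 genes). Nr4a3 and Klf4 had the smallest p, with common effects of -1.76 ± 0.53 (adjusted p 0.128) and -0.69 ± 0.21 (adjusted p 0.136). Both passed with DESeq2 (adjusted p 0.0273 and 0.0381), which called 5.07% of all genes for the common effect. An unadjusted p under 0.05 was found for 6 of 10 members, Nr4a3, Klf4, Nr4a1 (-0.78 ± 0.29), Btg2 (-0.62 ± 0.23), Egr1 (-0.97 ± 0.42) and Nr4a2 (-0.97 ± 0.44), against 9.33% of all genes that were lower at that level. The other members had common effects of -1.08 ± 0.55 for Egr2, -1.10 ± 0.71 for Egr3, -0.25 ± 0.17 for Dusp1 and -0.13 ± 0.24 for Ier2. An unadjusted p under 0.05 was found for 2 members without kidney control 3, for 3 without gastrocnemius control 3 and for 4 without brain control 2, with medians of -0.58, -0.71 and -0.63 against -0.87 with all libraries. The joint fit treated the 18 libraries as independent. Deviations of same-numbered kidney and gastrocnemius controls correlated at 0.109 to 0.124, so these libraries may come from the same mice. The SE and p-values above do not allow for this. Kidney control 3 and gastrocnemius control 3 were left out 1 at a time, not together.

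Differences between the tissues in the response did not pass for any member (0 of 10 in each of the 3 contrasts with edgeR and with DESeq2, against 0% of genes for kidney against brain, 0.0333% for gastrocnemius against brain and 0.0111% for gastrocnemius against kidney). At an unadjusted p under 0.05 there were 0, 2 and 0 members, against 7.66%, 11.7% and 6.57% of all genes. The 2 were Btg2 and Nr4a3, whose effects were lower in gastrocnemius than in brain by -1.47 ± 0.57 (adjusted p 0.331) and -2.58 ± 1.16 (adjusted p 0.401) on the log2 scale. A p above the threshold does not show that the responses were alike.

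**Figure D4:**
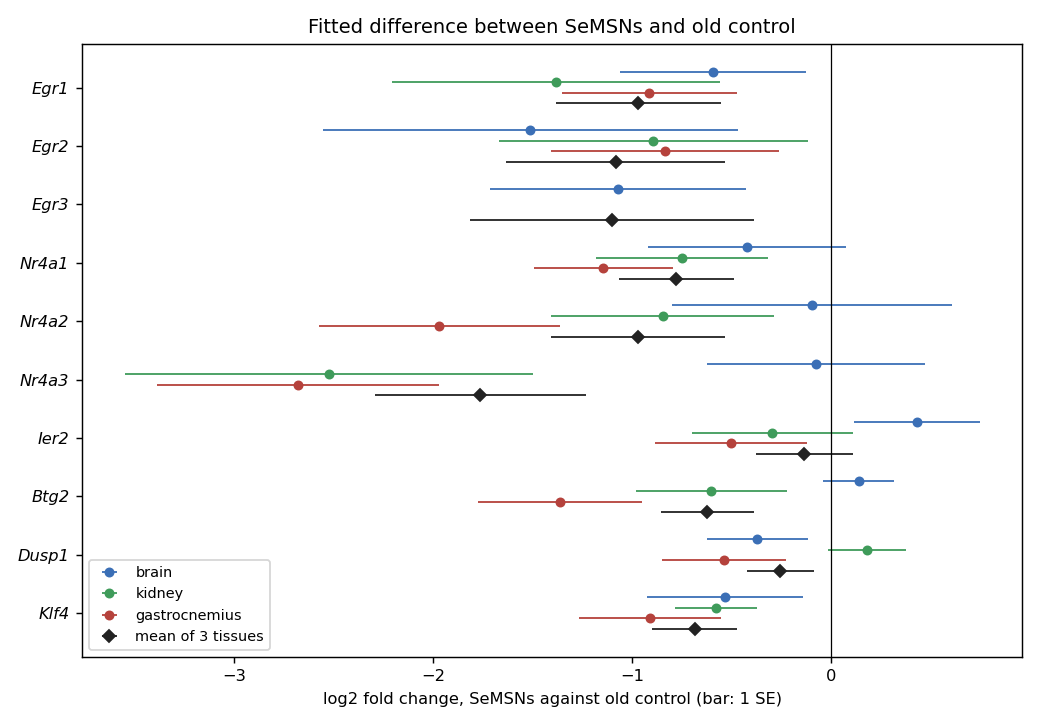
Fitted log2 fold change of SeMSNs against old control for each gene in brain, kidney and gastrocnemius and for the mean of the 3 tissues, with bars of 1 SE. All 10 means of tissues lie below 0, and the lowest point is Nr4a3 in gastrocnemius at -2.68; Egr3 has no point in kidney and gastrocnemius, where it was not tested.

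Genes that work with the members were read from lists of the same pathway, chosen with earlier results of these data known. Of 50 other early response genes, 44 of the 48 tested in gastrocnemius had lower fitted values with SeMSNs, 22 with an unadjusted p under 0.05, and their median fold change was -0.65. In kidney 39 of 48 and in brain 36 of 48 were lower, with 8 and 6 lower at that level and medians of -0.27 and -0.26. Of all genes, 51.1% in gastrocnemius, 49.6% in kidney and 48.8% in brain were lower, and 6.71%, 3.59% and 8.03% were lower at that level. In kidney the median deviation of this list from the control mean, in log2(CPM + 1), was -0.26, -0.20 and 0.49 in controls 1 to 3. With SeMSNs it was -0.24, -0.21 and -0.33, so that control 3 alone was high. With edgeR and all libraries, the 1 gene of the list that passed was Sik1, a kinase that inhibits the CRTC coactivators of CREB and is itself induced by CREB. In gastrocnemius it fell from 92.9, 117 and 121 CPM in the controls to 29.4, 19.1 and 24.4 CPM with SeMSNs (-2.19 ± 0.22, adjusted p 0.0246). The groups stood far apart, but the call was lost without control 2 or any of the 3 SeMSNs libraries (adjusted p 0.0528 to 0.219) and by limma on log2(FPKM + 1) (adjusted p 0.0961). In brain, Sik1 had 20.5, 29.3 and 32.0 CPM against 13.1, 9.26 and 14.9 CPM (-1.13 ± 0.25, adjusted p 0.255), and Rgs2, which encodes an inhibitor of G protein signalling, had 47.3, 43.0 and 60.4 CPM against 22.9, 21.6 and 36.4 CPM (-0.90 ± 0.24, adjusted p 0.255). DESeq2 called both (adjusted p 0.00493 and 0.0379), in a fit that called 4.15% of all genes. So did edgeR without SeMSNs 3 (adjusted p 0.0220 and 0.00866), in a fit that called 17.2% of all genes. In kidney the smallest p values of the list were those of Ppp1r15a, a stress-induced phosphatase subunit, at -0.56 ± 0.16, and Atf3, a stress-induced transcription factor, at -2.13 ± 0.65 (adjusted p 0.772 each), and Atf3 was at -0.99 without kidney control 3.

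The EGR proteins are held back by the co-repressors NAB1 and NAB2. In kidney Nab1 had 47.1, 50.9 and 63.9 CPM in the controls and 40.9, 36.8 and 37.6 CPM with SeMSNs (-0.49 ± 0.14, adjusted p 0.772). Nab2 had 16.3, 12.2 and 58.7 CPM in the controls and 15.3, 16.1 and 15.1 CPM with SeMSNs, with control 3 alone high as in Egr1 (-0.90 ± 0.54, adjusted p 0.779, and 0.13 without control 3). Nab2 differed by -0.30 ± 0.25 in gastrocnemius and 0.16 ± 0.15 in brain (adjusted p 0.622 and 0.623). Egr4, the remaining family member, was tested in brain alone, at 6.75, 10.3 and 5.33 CPM in the controls and 2.92, 1.76 and 9.85 CPM with SeMSNs (-0.62 ± 0.63, adjusted p 0.655). As for Egr3, its lowest values were in SeMSNs 1 and 2. Egr4 passed without SeMSNs 3 (-1.67, adjusted p 0.0341), in the fit that called 17.2% of all genes.

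MAP kinase phosphatases and ERK feedback inhibitors, the list to which Dusp1 relatives belong, had no called member in any tissue (0 of 14 tested in each with edgeR). In gastrocnemius 12 of 14 were lower, 3 with an unadjusted p under 0.05, against 51.1% and 6.71% of all genes. Dusp4 was at -1.50 ± 0.42 and Dusp10 at -0.66 ± 0.19 (adjusted p 0.307 each). In brain 2 were higher at that level, Dusp5 and Dusp10, and the share of all genes that was higher is not given here. Dusp5 had 13.3, 18.4 and 11.9 CPM in the controls and 89.1, 61.6 and 14.1 CPM with SeMSNs, and Dusp10 had 9.11, 8.01 and 7.33 CPM against 35.1, 33.7 and 8.27 CPM. The high values were in SeMSNs 1 and 2, the libraries with cerebellar markers, and SeMSNs 3 was near the controls (1.92 ± 0.61 and 1.66 ± 0.51, adjusted p 0.268 and 0.264). DESeq2 called them (adjusted p 0.0275 and 0.0327), in a fit that called 4.15% of all genes. So did edgeR without SeMSNs 3 (adjusted p 0.00284 and 0.00079), in a fit that called 17.2% of all genes.

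Upstream, the genes of the kinases ERK, RSK, MSK and p38 were on balance level in gastrocnemius, with a median of 0.05. Of these, 6 of 17 were lower, none at an unadjusted p under 0.05. Of all genes, 51.1% were lower in this tissue, and 6.71% were lower at that level. Of the 14 genes of SRF, its partners, CREB and its coactivators, 11 were lower, with a median of -0.14, and Crtc2, a CREB coactivator, had the smallest p (38, 32.8 and 22.5 CPM against 18.7, 21.4 and 18.2 CPM, -0.67 ± 0.22, adjusted p 0.312). Among other BTG and Krueppel-like genes 9 of 12 were lower, with Btg1 at -0.66 ± 0.20 and Klf15, a glucocorticoid-induced regulator of muscle metabolism, at -0.61 ± 0.20 (adjusted p 0.312 each). With edgeR and all libraries, no gene of these 3 lists passed in any tissue. Crtc2 did without gastrocnemius control 3 (-0.86, adjusted p 0.0445), in a fit that called 2.51% of all genes. In brain and kidney 0 to 2 genes of each list were lower, and 0 to 2 higher, at an unadjusted p under 0.05. Of all genes, 8.03% in brain and 3.59% in kidney were lower at that level.

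Metabolic genes of muscle that have been linked to NR4A receptors had mostly higher values. In gastrocnemius 11 of 16 had higher fitted values, with a median of 0.42 (51.1% of all genes had lower values). At an unadjusted p under 0.05 there were 5 higher and 1 lower, with none called. Of all genes, 6.71% were lower at that level, and the share that was higher is not given here. Eno3, the muscle enolase of glycolysis, had 1448, 1468 and 1905 CPM in the controls and 3068, 2761 and 2678 CPM with SeMSNs (0.82 ± 0.22, adjusted p 0.307). Lpin1, a phosphatidic acid phosphatase, had 309, 306 and 621 CPM against 213, 224 and 249 CPM (-0.85 ± 0.29, adjusted p 0.318), and was highest in control 3. Both genes were named because they had the smallest p of their list. The groups of Lpin1 did not overlap, which held for 8.14% of all genes in this direction. DESeq2 called Eno3 (adjusted p 0.0120), in a fit that called 1.24% of all genes. Fast fibre markers were also higher in sum, at 129416 to 165826 CPM against 110381 to 121798 CPM, over 10 markers all of which were tested. Their part in the result was not tested. Of 10 heat shock genes, 8 were lower in gastrocnemius, 2 at an unadjusted p under 0.05. Of 13 genes induced by glucocorticoids 9 were lower, 6 at that level. Of all genes, 51.1% were lower in this tissue, and 6.71% were lower at that level. No gene was called in either list.

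**Figure D5:**
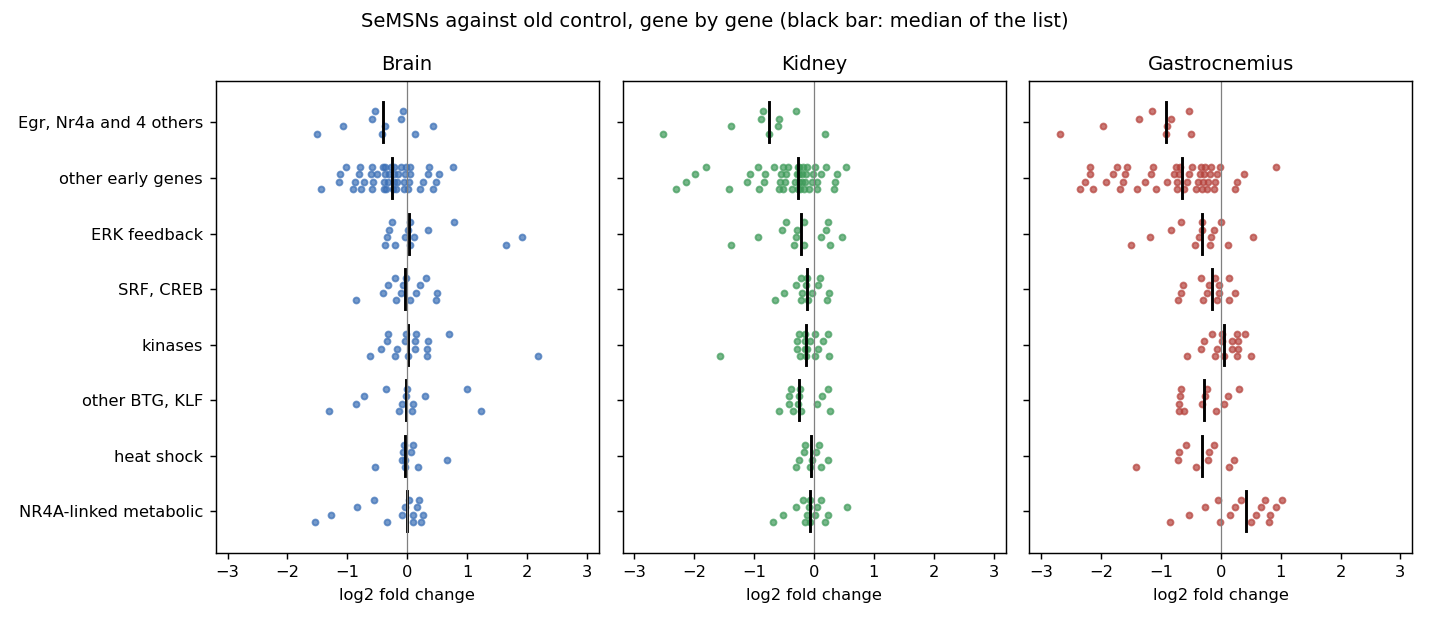
Fitted log2 fold change of SeMSNs against old control for each tested gene of 8 lists in brain, kidney and gastrocnemius, with a black bar at the median of each list. In gastrocnemius the medians of the Egr and Nr4a list and of the other early genes are -0.91 and -0.65, and that of the NR4A-linked metabolic genes is 0.42.

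The genes whose pattern was most like that of the members were found by Pearson's correlation of log2(CPM + 1), centred within each tissue, with the mean of the 9 members tested in all fits, over 18 libraries and 12124 genes. The libraries share their depth and composition with the members, and the values are a description. Junb, an early response gene of the AP-1 family, came first (r = 0.926, rho = 0.917), followed by Ptpn1, a tyrosine phosphatase (r = 0.907, rho = 0.938), Midn (r = 0.897, rho = 0.756) and Pi15 (r = 0.892, rho = 0.719). Auts2, Fam111a and B4galt1 had r from 0.869 to 0.889. Junb had 14.9, 13.1 and 42.6 CPM in the kidney controls and 15.3, 19.6 and 12.6 CPM with SeMSNs, and 12.3, 25.2 and 58.6 CPM against 9.20, 8.31 and 13.3 CPM in gastrocnemius. Control 3 was the highest library in both tissues, as it was for 9 of the 10 members in kidney and 8 in gastrocnemius. In brain, Junb had 23.4, 34.1 and 25.9 CPM in the controls and 15.3, 9.92 and 40.2 CPM with SeMSNs. SeMSNs 3 was thus its highest brain library, whereas control 2 was the highest for 8 of the 10 members. In none of the 3 tissues did any of these 7 genes pass the threshold between SeMSNs and control.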

How the data were processed

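RNA was measured by polyA RNA-seq in 18 libraries, 3 per group and tissue. The authors deposited raw counts per gene and FPKM values in 1 table. The genome was GRCm38, per the submitters' processing notes, and for the aligner, counter, annotation and strand setting the sources used here give nothing. The deposited counts were tested here with edgeR 4.0.16 in R 4.3.3 (quasi-likelihood, TMM, filterByExpr at min.count 10, min.total.count 15), within each tissue, in a joint fit of all 18 libraries, and over the 9 control libraries. P-values were adjusted by Benjamini-Hochberg over all genes tested, with a threshold of 0.05. An exact permutation test of 3 against 3 libraries cannot give a p below 0.1 and was not used. Alternatives were RLE size factors, no filter, DESeq2 1.42.0, limma 3.58.1 on log2(FPKM + 1) and log2(FPKM + 0.1), a replicate block, all 18 libraries in the fit, and leaving out each library. The scripts were tested on simulated data. In these, edgeR called 4.04% of 2-fold changes in brain, 39.8% in kidney and 24.2% in gastrocnemius. Of 4-fold changes it called 70.5%, 85.9% and 89.9%. A member that did not pass may therefore still differ between the groups.

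The members and lists were chosen with earlier results of these data known. All 10 members were named in every comparison. From each other pathway list and tissue, up to 4 genes past the threshold, or else up to 2 with the smallest p, could be named. Merged exon lengths came from GENCODE M21, and promoters from RefSeq (GRCm38.p6), where 7 of 10 members matched by symbol. The SeMSNs library called 3 in each tissue has that number in its title and the number 4 in its column name. Deviations of same-numbered kidney and gastrocnemius controls correlated at 0.109 to 0.124, which pairs those libraries by the rule used (every pair over 0.1), while those with brain did not (0.0103 to 0.0712). At 17357799 to 22146406 counts per library, Egr3 stayed below the filter in kidney and gastrocnemius. Of the 8 genes most like the members in pattern, 1 is not reported here.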

Additional observations from a re-analysis of the deposited data

How the results depend on the processing

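No member passed in any tissue with RLE size factors, without a filter, with limma or with all 18 libraries in the fit. With DESeq2, 2 members passed in gastrocnemius (1.24% of all genes did) and 2 in the common effect (5.07% of all genes), against 0 with edgeR. Leaving out 1 library gave 0 to 1 members called in brain and in gastrocnemius. The number of genes called moved more. In brain it was 1, with 668 by DESeq2, 190 with all 18 libraries, 2 with the replicate block, 0 without SeMSNs libraries 1 and 2 (chosen after seeing the data), and 0 to 2852 when leaving out 1 library. In kidney it was 1, with 26 by DESeq2, 5 without a filter, 0 with both limma fits and with the block, and 0 to 4 when leaving out 1 library. In gastrocnemius it was 3, with 163 by DESeq2, 31 without a filter, 30 with all 18 libraries, 0 by limma on log2(FPKM + 1), and 0 to 335 when leaving out 1 library. Between gastrocnemius and kidney controls, 3 members passed by limma on log2(FPKM + 1), against 6. The limma fits used FPKM without TMM factors. Their log2 difference for Dusp1 on log2(FPKM + 1) was 0.29, against 0.91 with edgeR. The part of the scaling in the lost calls was not tested. Replicate numbers, taken from the titles, did not pair SeMSNs with control libraries: correlations of same-numbered libraries ran from -0.176 to 0.114. No member passed between SeMSNs and control with the replicate block, and Sik1 did not pass in gastrocnemius (adjusted p 0.0831). Between control tissues the block changed no call for gastrocnemius against kidney, and added Egr1 (adjusted p 0.0418) and Klf4 (0.0196) for kidney against brain and Egr1 (0.0405) for gastrocnemius against brain. Signs turned in brain without SeMSNs 1 and 2 for Nr4a2 (0.74), Egr1 (0.11), Nr4a1 (0.32), Nr4a3 (0.30), Dusp5 (-0.0265) and Egr4 (0.42). They also turned between gastrocnemius and kidney controls for Egr3 by limma (-0.0617 and -0.243) and for Egr1 with the block (0.12). Leaving out 1 library turned the sign, within these ranges of log2 fold change, in brain for Nr4a2 (-0.79 to 0.70), Btg2 (-0.0043 to 0.27), Nr4a1 (-0.999 to 0.0382) and Nr4a3 (-0.33 to 0.54). In kidney it did so for Btg2 (-0.89 to 0.0348), Egr2 (-1.36 to 0.48), Egr1 (-1.98 to 0.24), Ier2 (-0.55 to 0.34) and Nab2 (-1.27 to 0.13), and in gastrocnemius and the common effect for Ier2 (-0.75 to 0.10 and -0.23 to 0.0801). Between control tissues it did so for Egr2 (kidney against brain, -2.19 to 0.53, and gastrocnemius against brain, -0.63 to 1.09) and, between gastrocnemius and kidney, for Egr3 (-1.33 to 1.31), Egr1 (-0.76 to 1.39) and Ier2 (-0.91 to 0.33).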
